A study of Mus musculus with 6 samples.

Results

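The miR-297, miR-466, miR-467 and miR-669 families were examined in bone marrow endothelial cells (ECs) of mice. Members were taken by name: every miRNA on the array called mmu-miR-297, mmu-miR-466, mmu-miR-467 or mmu-miR-669 followed by a letter. That gave 61 of the 1881 miRNAs on the array, and no signal value entered the choice. The miRNAs were measured in type H ECs, which stain strongly for CD31 and endomucin (CD31hiEmcnhi), and in type L ECs, which stain weakly for both (CD31loEmcnlo), with 3 arrays of each. All mice were untreated wild-type C57BL/6 animals aged 1 month. Their sex is male in the sample labels and female in the methods. The labels also have the sorted cells kept in endothelial growth medium on fibronectin before total RNA was taken, a step missing from the array methods. The labels describe linear amplification to Cy3-labelled cRNA, whereas the methods describe Cy3 labelling of small RNAs.

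In mice, most hairpins of these families lie in a long tandem repeat inside an intron of Sfmbt2, an imprinted gene on chromosome 2 that codes for a Polycomb group protein and is needed for the placenta. Each hairpin can give a 5p and a 3p mature miRNA from its opposite arms, and many of these are rich in alternating U and G or in alternating C and A. A mature miRNA pairs with its targets mainly through its seed near the 5′ end, so members that differ by 1 base there can have different targets. An array probe is a short DNA strand that binds the mature miRNA, and probes for repeat-rich relatives resemble each other.

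The probes are shown first, because the resemblance among them bears on every value that follows. Each sequence is the longest probe of its miRNA as listed in the deposited array files, written 5′ to 3′, with the longest unbroken alternation of C and A or of T and G in capitals. A run of CA in the probe pairs with GU repeats in the miRNA, and a run of TG pairs with CA repeats. The first set pairs with GU repeats.
miR-466i-5p: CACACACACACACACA
miR-669n: acacacatcCACACACAa
miR-669l-5p: acatatacatgCACACAC
miR-466m-5p: atACACACAtgcacatgc
miR-669e-5p: atgaacatgCACACACA
The second set pairs with CA repeats. Its first 5 members include close relatives that were called in opposite directions, and the last pair are lower members with long runs.
miR-467a-3p: tgtagGTGTGTGTatgtata
miR-467d-3p: gtgtagGTGTGTGTatg
miR-467f: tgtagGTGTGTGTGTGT
miR-669f-3p: atacGTGTGTGTGTatgt
miR-669p-3p: atacGTGTGTGTGTGTatg
miR-466f-3p: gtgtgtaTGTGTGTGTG
miR-466h-3p: GTGTGTGTGTGcgt
The third set has no run of 6 bases or more.
miR-467a-5p: cgcatatACAtgcaggca
miR-467b-5p: catatACAtgcaggcact

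The RefSeq table for mouse assembly GRCm38.p6 held a mature sequence for 7 of the 61 members, of which 5 were tested here. These 5 are printed with the seed, bases 2 to 8, in capitals.
miR-466i-3p: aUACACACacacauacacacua
miR-466j: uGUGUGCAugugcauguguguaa
miR-466q: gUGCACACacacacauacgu
miR-467f: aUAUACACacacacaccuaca
miR-669n: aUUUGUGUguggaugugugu
RefSeq places miR-466i-3p at chr13:17747552-17747573 on the plus strand, miR-466j at chr10:60960802-60960824 on the plus strand and miR-466q at chr3:28419988-28420007 on the plus strand. It places miR-467f at chr11:69635419-69635439 on the minus strand and miR-669n at chr3:115979905-115979924 on the plus strand. The 5 seeds all differed, so none of these members shared a seed with another. The longest probe of each was the exact complement of the 3′ part of its mature sequence: bases 5 to 21 for miR-467f, 4 to 20 for miR-466q and 3 to 20 for miR-669n. The seed, the part that sets the targets, was thus covered only in part by the probe.

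The array files give probe positions on mouse assembly mm9. Of the 61 members, 31 were listed between positions 10388918 and 10438764 of chromosome 2, a stretch of 49.8 kb. Of these, miR-669b-5p was also listed at positions outside that stretch. MiR-466i-3p was listed on chromosome 13 only, and 29 members had no position. For miR-669n the array annotation gives chromosome 2, whereas RefSeq gives chromosome 3.

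Some facts of the whole set of arrays bear on these values. The 3 type H arrays shared 1 slide and the 3 type L arrays the other, with separate scan days, so an effect of the slide cannot be told apart from one of the cell type. Of 10 control features detected on all 6 arrays, 10 were brighter with type H, by log2 differences of 0.23 to 1.48 with a median of 0.56. The controls were not part of the quantile normalization, so neither the signs nor the sizes of their differences can be set against those of the members. The part of the slide in the differences was not tested. MiR-126a, an endothelial miRNA, was detected on none of the 6 arrays in either arm. Of 6 stromal miRNAs (the miR-199a, miR-214, miR-143, miR-145a and miR-140 group) 5 were detected on all 6 arrays, with a summed signal of 808 to 1030 in type H and 706 to 809 in type L. Of 6 haematopoietic miRNAs 0 were detected. The labelled endothelial identity therefore had no support from miR-126a on these arrays, and the part of other cells in the differences was not tested. In bulk RNA such as this, fewer cells of a type and less RNA per cell cannot be told apart.

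The families were detected more widely in type L than in type H ECs. A miRNA counted as detected where the scanner software flagged it so. On the type H arrays 17, 16 and 17 members were detected, and on the type L arrays 30, 30 and 29. Counts over all miRNAs were 281, 263 and 264 for type H against 295, 309 and 298 for type L. Wider detection in type L was thus also seen beyond the families. In all, 30 of the 61 members (49.2%) were detected on at least 1 array, against 18.5% of all miRNAs on the array. The remaining 31 were detected on no array. MiR-669f-5p was detected on 2 type L arrays only and was not tested.

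In type L alone, 12 of the 29 tested members (41.4%) were detected, on each of its 3 arrays. Over all 311 miRNAs tested the share was 13.5%. The reverse pattern, all type H and no type L arrays, was found for 0 members and for 6.11% of all miRNAs tested. By family the 12 comprised 6 miR-466 members, 5 miR-669 members and miR-297c-5p, and none from the miR-467 family. By arm they comprised 10 5p miRNAs and a pair named without an arm, miR-466g and miR-466j. Among the 29 tested members 20 were called lower and 7 higher in type H by limma (adjusted p below 0.05), beside 42.1% and 44.7% of the 311 miRNAs, of which 86.8% were called. The 12 entered the test only because type L was above background, so that they had to differ, and they are described by bounds rather than counted as differences.

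Signals are given as the sum of the scanner's probe totals, in arbitrary intensity units, before normalization between arrays. MiR-669l-5p, the brightest of the 12 in type L, read 2.03, 1.53 and 1.30 on the type H arrays and 16.7, 16.2 and 13.9 on the type L arrays. MiR-466m-5p read 1.82, 1.01 and 0.873 against 12.3, 12.6 and 9.85. MiR-669e-5p read 1.01, 0.503 and 0.0276 against 11.8, 10.4 and 9.15. In each the type L arrays lay far above the type H arrays and the type H values were not above background. For such members the fold is a bound, the type L mean over a type H ceiling, both means of normalized log2 values, where the ceiling on each array is the member's own signal or, if greater, the lowest signal of any detected miRNA. In type L, miR-669l-5p was at least 8.25-fold, miR-466m-5p at least 7.85-fold and miR-669e-5p at least 7.49-fold higher. The bounds hold for this signal, background and scaling only. For miR-669l-5p, miR-669b-5p and miR-297c-5p the ceiling was the member's own signal, so the bound equals the fitted difference. With undetected probes left out of the sums, some members fell short of their bounds and others exceeded them. Log2 differences, type H minus type L, then ran from -0.09 for miR-466f-5p to -3.79 for miR-669l-5p. No p is given for these bounds, since detection in type L alone fixed their direction.

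Further down the same list, miR-669o-5p read 0.696, 0.189 and 0.261 in type H and 7.27, 7.25 and 5.61 in type L. MiR-466h-5p read 1.06, -0.0588 and 0.469 against 7.50, 6.69 and 5.72. MiR-466j read 0.562, -0.158 and 0.361 against 6.44, 6.55 and 5.53. In these 3 the type H arrays sat around 0 and the type L arrays within a narrow band, with bounds of at least 4.74-fold, 4.71-fold and 4.35-fold. MiR-466c-5p read 1.47, 0.945 and 0.987 against 7.27, 7.05 and 5.82, or at least 4.21-fold higher in type L. MiR-466g read 1.97, 1.21 and 1.16 against 6.78, 6.25 and 6.30, or at least 3.74-fold. Both again showed no overlap between the cell types.

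The 4 smallest bounds follow. MiR-669k-5p read 0.367, 0.159 and -0.0727 in type H and 5.33, 4.70 and 4.05 in type L, at least 3.30-fold higher in type L. MiR-669b-5p read 3.05, 1.81 and 2.03 against 8.73, 8.79 and 7.58, at least 2.89-fold, with the highest type H signal of the 12. For these members and the pair that follows, type H lay below type L on every array. MiR-466f-5p read 0.00744, -0.639 and -0.589 against 2.71, 2.60 and 2.24, at least 1.87-fold. MiR-297c-5p, the only member detected under a miR-297 name, read 2.49, 2.01 and 2.16 against 4.52, 4.72 and 4.09, at least 1.59-fold. The array also lists the probes of miR-669b-5p under miR-297a-5p, so its signal cannot be assigned to 1 of these names. For the 12 together the bounds ran from 1.59-fold to 8.25-fold.

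On all 6 arrays 16 of the 61 members were detected, and for these members either direction was open. Log2 differences are type H minus type L after quantile normalization, tested with limma across the 311 miRNAs, and members with an adjusted p below 0.05 are called higher or lower in type H. Of the 16, 8 (50%) were lower and 7 (43.8%) were higher, while 1 was not called. Over all 231 miRNAs detected on all 6 arrays, 35.1% were lower and 48.5% were higher, so that a call in itself was common. At a difference of at least 2-fold, 5 of the 16 (31.2%) were lower against 6.93% of the 231, and 1 (6.25%) was higher against 7.36%. The normalized signals of the cell types did not overlap for 15 of the 16 (93.8%) and for 84.8% of the 231. The median difference of the 16 was -0.29, beside 0.11 over the 231. The labels name the arrays biological replicates, and the p-values measure only the spread among these 3 and 3 arrays.

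The split between higher and lower depended on the scaling. With the 75th percentile in place of quantiles, 10 of the 16 were lower and 5 higher, and over the 231 miRNAs 53.7% were lower and 32.5% higher. Without normalization 9 were lower and 4 higher (38.5% and 30.7% of the 231), and with the members left out of the percentile 10 were lower and 4 higher (59.3% and 24.2%). The 75th percentile moved the median of all 231 miRNAs from 0.11 to -0.22 and that of the 16 from -0.29 to -0.77. Relative to the median of all miRNAs, the 16 thus lay lower with quantiles and with the 75th percentile.

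**Figure D1:**
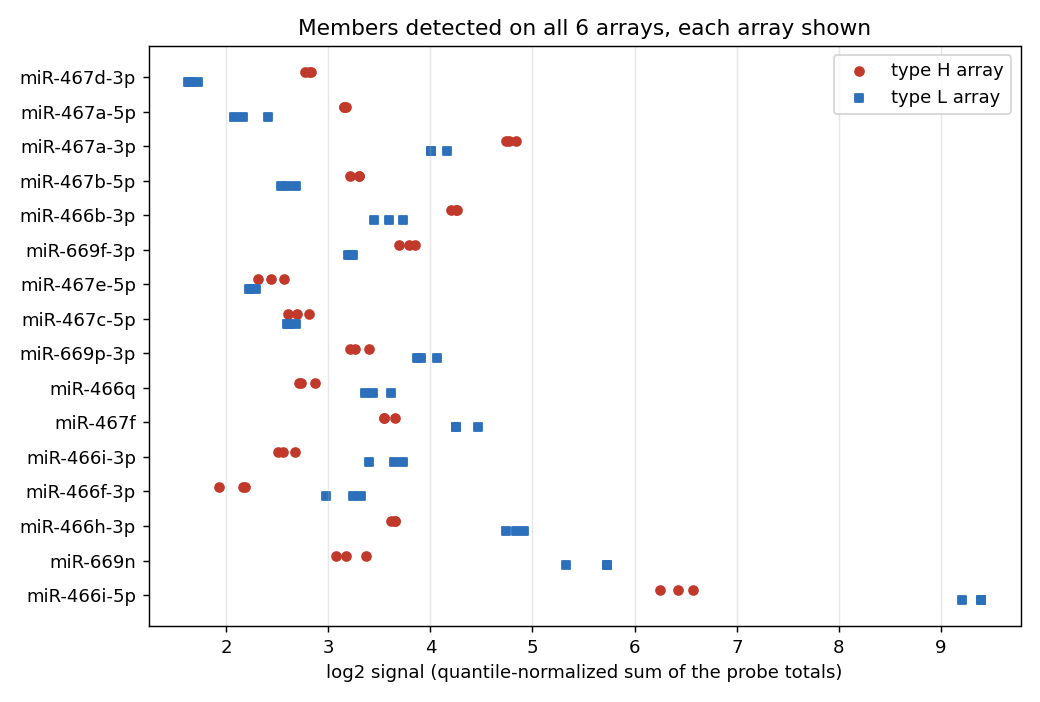
Log2 signal (x axis, quantile-normalized sum of the probe totals) of the 16 members detected on all 6 arrays, with circles for the 3 type H arrays and squares for the 3 type L arrays, ordered by their difference. MiR-466i-5p and miR-669n at the bottom are far lower in type H, while most miR-467 members at the top are higher.

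MiR-466i-5p, whose probe is an unbroken CA repeat, had the brightest signal of the families and the largest difference among the 16. Its signals were 116, 83.1 and 75.5 on the type H arrays and 689, 703 and 608 on the type L arrays. The type L arrays all lay far above the type H arrays. Normalized log2 signals were 6.42 ± 0.158 and 9.33 ± 0.107 (SD, n = 3 each), a difference of -2.92 (SE 0.0969) or 7.55-fold (limma, adjusted p = 4.62e-06). As a test of this single value, an exact two-sided permutation test of 3 against 3 arrays gave p = 0.10, the smallest that design allows. MiR-466i-5p made up 36.4 to 41.2% of the summed signal of the detected members on the type H arrays and 66.4 to 68.4% on the type L arrays. The summed signal of the detected members was 281, 214 and 207 in type H and 1030, 1030 and 917 in type L. That was 0.305 to 0.353% of the signal of all detected miRNAs in type H and 1.15 to 1.33% in type L.

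MiR-669n, which also carries a GU-rich mature sequence, showed the next largest difference. It read 10.3, 7.19 and 7.14 in type H and 53.3, 54.0 and 45.4 in type L. The cell types were widely separated, with a log2 difference of -2.39 (SE 0.138), or 5.24-fold lower in type H (limma, adjusted p = 2.18e-05). The array lists the same probes under miR-669c-5p as well, so its signal cannot be assigned to 1 of these names.

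The remaining 6 of the 8 lower members pair with probes that hold TG runs of 10 bases or more. MiR-466h-3p read 12.3, 10.8 and 10.5 in type H and 33.7, 30.5 and 29.8 in type L. MiR-466f-3p read 4.37, 3.26 and 3.44 against 11.0, 9.05 and 10.8. MiR-466i-3p read 5.62, 4.82 and 5.0 against 14.4, 11.8 and 14. In each of the 3 the type L arrays lay at more than double the type H arrays on average. Log2 differences were -1.19 (SE 0.0530) for miR-466h-3p, -1.08 (SE 0.115) for miR-466f-3p and -1.01 (SE 0.0949) for miR-466i-3p (limma, adjusted p = 9.41e-06, 0.000239 and 0.000146).

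MiR-467f read 11.8, 10.3 and 10.3 in type H and 24, 20.4 and 21.2 in type L. MiR-466q read 6.47, 5.42 and 5.73 against 13.5, 11.6 and 12.8. MiR-669p-3p read 9.33, 8.16 and 8.25 against 18.0, 16.3 and 16.4. Type L lay above type H on every array for these members too. After normalization they were lower in type H by smaller amounts, with log2 differences of -0.74 (SE 0.0725), -0.70 (SE 0.0788) and -0.66 (SE 0.0741) in that order (limma, adjusted p = 0.000175, 0.000322 and 0.000314).

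The members that were higher in type H came mainly from the miR-467 family. MiR-467d-3p read 6.79, 5.58 and 5.6 in type H and 3.66, 3.47 and 3.66 in type L. MiR-467a-5p read 9.13, 7.60 and 7.08 against 4.82, 5.14 and 6.01. MiR-467a-3p read 29.2, 23.4 and 22.3 against 17.5, 17.8 and 19.6. For all 3 the lowest type H array exceeded the highest type L array. Their log2 differences were 1.13 (SE 0.0376), 0.94 (SE 0.0876) and 0.72 (SE 0.0552) in that order (limma, adjusted p = 4.62e-06, 0.000138 and 6.19e-05). At 2.19-fold, miR-467d-3p was the only one of the 16 that was at least 2-fold higher in type H, a log2 difference that was 0.63 with the 75th percentile. The probes of miR-467d-3p are listed under miR-467a* as well, so its signal cannot be assigned to 1 of these names.

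MiR-467b-5p read 9.75, 7.82 and 7.62 in type H and 6.54, 6.99 and 7.14 in type L. MiR-466b-3p, the only miR-466 member that was higher, read 20.6, 16.0 and 15.5 against 11.9, 13.3 and 14.7. MiR-669f-3p read 14.3, 11.0 and 11.7 against 10.4, 10.2 and 10.8. The raw signals of these 3 were separated by narrow margins, with 1 type H array, the first, well above the others. Log2 differences were 0.67 (SE 0.0487), 0.64 (SE 0.0743) and 0.56 (SE 0.0498) in that order (limma, adjusted p = 5.11e-05, 0.000353 and 0.000117). MiR-467b-5p did not pass the threshold without normalization, at 0.28 (limma, adjusted p = 0.061), or with the members left out of the percentile, at 0.05 (limma, adjusted p = 0.414), and miR-466b-3p was 0.38 and 0.16 there. MiR-669f-3p did not pass the threshold under the 75th percentile, where its difference was 0.13 (limma, adjusted p = 0.113).

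Near 0 lay miR-467e-5p, miR-467c-5p and miR-669c-3p. MiR-467e-5p read 5.66, 4.22 and 4.14 in type H and 5.30, 5.63 and 5.45 in type L. MiR-467c-5p read 6.34, 5.74 and 4.65 against 7.01, 7.29 and 6.92. MiR-669c-3p, detected on 2 type H and 3 type L arrays, read 3.21, 2.49 and 2.86 against 4.14, 3.53 and 3.72. The raw signals of miR-467e-5p overlapped, and those of miR-467c-5p and miR-669c-3p were lower in type H. After quantile normalization the log2 differences were 0.20 (SE 0.0704), 0.07 (SE 0.0583) and -0.03 (SE 0.116) in that order (limma, adjusted p = 0.0398, 0.301 and 0.846). MiR-467e-5p and miR-467c-5p turned to -0.34 and -0.45 with the 75th percentile, so no direction is given for either. MiR-669c-3p was called lower with the 75th percentile, at -0.52 (limma, adjusted p = 0.00412), without normalization, at -0.42 (adjusted p = 0.00422), and with the members left out of the percentile, at -0.64 (adjusted p = 0.00182).

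By family, then, the 6 miR-466 members on all 6 arrays comprised 5 lower and 1 higher, with a median log2 difference of -1.05. The 7 miR-467 members comprised 5 called higher, 1 lower and 1 not called, with a median of 0.67. One of those 5 calls is that of miR-467e-5p, which turned with the scaling. The 3 miR-669 members comprised 2 lower and 1 higher, with a median of -0.66. By arm, the 5 5p members comprised 3 higher (miR-467e-5p among them), 1 lower and 1 not called, and the 8 3p members 4 higher and 4 lower. The 3 members named without an arm were all lower. Beside these counts, 35.1% of the 231 miRNAs detected on all 6 arrays were lower and 48.5% were higher. Whether the families differ was not tested, since their members share sequence and are not replicates.

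**Figure D2:**
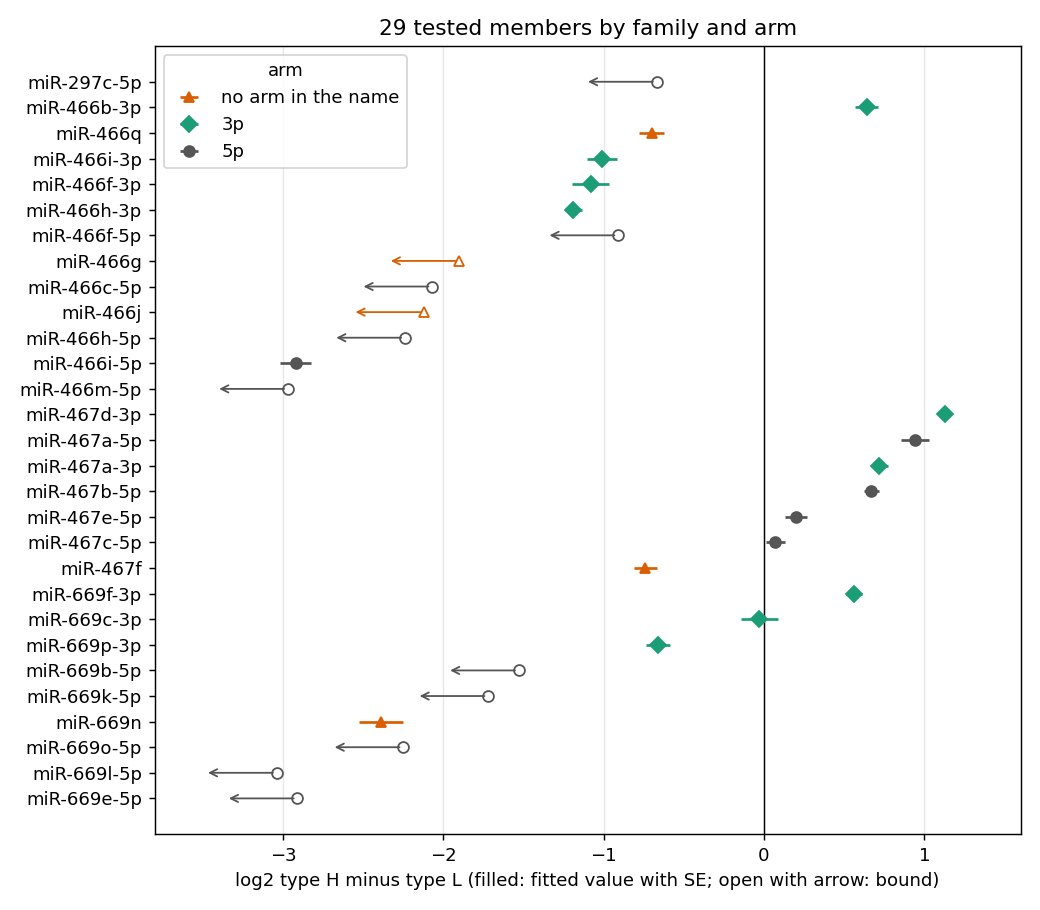
Log2 difference, type H minus type L (x axis), of the 29 tested members, grouped by family, with symbols for the arm. Filled symbols are fitted values with their SE for members detected on at least 2 type H arrays; open symbols with an arrow are bounds for the 12 members detected in type L alone. All but 1 of the miR-467 members lie at or above 0, and the 5p members of the miR-466 and miR-669 families lie far below it.

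Hairpins with both arms tested under their own names allowed the arms to be set side by side, each arm against itself across cell types. Arms read only through another listed name were left out, since such a signal cannot be assigned to 1 name. Examples are miR-466c-3p, miR-669o-3p and miR-669c-5p. The miR-669n probes, also listed as miR-669c-5p, gave a log2 difference of -2.39, beside -0.03 for miR-669c-3p. For miR-466i the log2 difference was -2.92 for the 5p arm and -1.01 for the 3p arm. The ratio of the 5p to the 3p signal within an array was 20.6, 17.3 and 15.1 on the type H arrays and 47.9, 59.4 and 43.3 on the type L arrays. The ratio of these signals was higher on every type L array (log2 difference of the ratio -1.51, exact permutation test, two-sided, p = 0.10, the smallest possible). Since the 5p probe is an unbroken repeat, how far this reflects the arms of the hairpin was not tested. For miR-466h the 3p arm was lower in type H by 2.29-fold and the 5p arm, detected on no type H array, by at least 4.71-fold. For miR-466f the 3p arm was lower by 2.12-fold and the 5p arm by at least 1.87-fold, so these arms cannot be ordered. For miR-467a both arms were higher in type H, by 0.94 and 0.72.

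The members are described next by the repeat that the probe pairs with. Probes were searched for CACACA or ACACAC and, apart from these, for TGTGTG or GTGTGT, on the probe strand only. One or the other was found in 25 of the 29 tested members (86.2%), in 46 of all 61 members (75.4%), in 4.61% of the other miRNAs tested and in 4.52% of all miRNAs on the array. Of the 13 tested members with a CA motif, 11 were detected in type L only, so that their direction was fixed, and the other two, miR-466i-5p and miR-669n, were lower. Of the 10 members with a TG motif detected on all 6 arrays, 6 were lower and 4 higher, beside 35.1% and 48.5% of the 231 miRNAs. The 4 tested members with neither motif were miR-467a-5p, miR-467b-5p, miR-467c-5p and miR-467e-5p. Of these, miR-467a-5p was called higher under quantile normalization and the 3 other scalings but turned with the deposited totals, and the calls of the others changed with the scaling as given above. Whether direction differs between the motifs was not tested.

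Outside the families, 6 miRNAs detected on all 6 arrays had a CA motif in the probe, of which 4 were lower and 2 higher, with a median log2 difference of -1.45. Another 3 had a TG motif, and all 3 were lower, with a median of -1.17. Over the 231 miRNAs detected on all 6 arrays, 35.1% were lower and 48.5% higher, with a median of 0.11. These few miRNAs carry no test of the motif. Long CA runs were found in miR-574-5p, miR-1187 and miR-3082-5p, which were chosen after their values were seen. MiR-574-5p read 49.6, 34.8 and 31.3 in type H and 270, 272 and 238 in type L. MiR-1187 read 21.2, 13.2 and 12.5 against 145, 150 and 132, and miR-3082-5p read 22.4, 12.7 and 12.4 against 168, 170 and 147. All lay far lower on every type H array, with log2 differences of -2.64, -3.07 and -3.25 (limma, adjusted p = 8.97e-06, 4.62e-06 and 2.01e-05). Large differences of this kind were thus also found outside the families. How much of a signal came from the named miRNA and how much from other RNA that pairs with the same repeat was not tested.

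**Figure D3:**
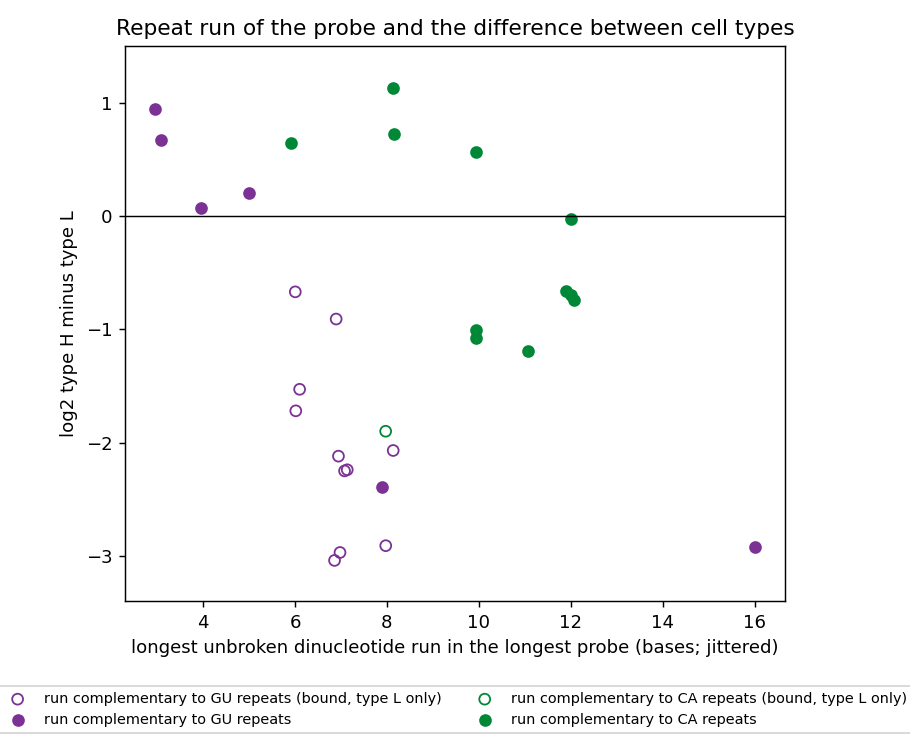
Log2 difference, type H minus type L (y axis), against the longest unbroken run of an alternating base pair in the longest probe (x axis, bases, jittered) for the 29 tested members. Filled circles are fitted values and open circles bounds for members detected in type L alone. Members above 0 have runs of at most 10 bases, and miR-466i-5p, with a run of 16, is lowest among the filled circles.

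The members that pair with CA repeats can be set out by the length of the run. With TG runs of 6 to 8 bases, miR-466b-3p, miR-467a-3p and miR-467d-3p were higher in type H, and miR-466g, with a run of 8, was detected in type L alone. With a run of 10, miR-669f-3p was higher while miR-466f-3p and miR-466i-3p were lower. With runs of 11 or 12, miR-466h-3p, miR-466q, miR-467f and miR-669p-3p were lower and miR-669c-3p was not called. Across the 16 members detected on all 6 arrays, Spearman's rho of the log2 difference with run length was -0.64, and across the 215 other miRNAs detected on all 6 arrays it was 0.10. With the GC content of the probe it was -0.34 and -0.41, and with probe length 0.36 and 0.49. Across the 10 of the 16 with TG runs alone, rho was -0.56 with run length, -0.60 with GC content and 0.39 with probe length. These describe miRNAs that share arrays and sequence, and carry no test.

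Closely similar probes could differ in direction, and the pairs given here were chosen after their values were seen. The longest probes of miR-669p-3p and miR-669f-3p share 14 bases in a row and differ in runs of 12 and 10 bases. The ratio of miR-669p-3p to miR-669f-3p was 0.653, 0.743 and 0.704 on the type H arrays and 1.74, 1.6 and 1.53 on the type L arrays. The longest probes of miR-467f and miR-467a-3p share 13 bases, with runs of 12 and 8. Their ratio was 0.404, 0.439 and 0.463 in type H and 1.38, 1.15 and 1.08 in type L. In both pairs the ratio was below 1 on every type H array and above 1 on every type L array, and it does not depend on the scaling between arrays. The log2 ratios differed by -1.21 and -1.46, given without a test because the pairs were picked for this difference.

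Probes of the members were often alike in part but were not identical. Among the 406 pairs of the 29 tested members, 0 had an identical probe, 2 had a probe of one inside a probe of the other (miR-466f-3p with miR-466i-3p, and miR-466f-5p with miR-669b-5p) and 34 shared 12 or more bases in a row. Those 34 pairs involved 22 members. In 13 of the 34 both members were detected on all 6 arrays, and in 10 of these both were called, 7 pairs in the same direction and 3 in opposite directions. The opposite pairs were miR-467a-3p and miR-467d-3p each with miR-467f, and miR-669f-3p with miR-669p-3p. Among the 29 tested members, 7 had probes that the array also lists under another miRNA name. Besides miR-669n these included miR-669l-5p, listed also as miR-467h and miR-669d-5p, and miR-669f-3p, listed also as miR-669a-3p and miR-669o-3p. The others were miR-669b-5p (also miR-297a-5p and miR-466f), miR-467d-3p (also miR-467a*), miR-466b-3p (also miR-466a-3p and miR-466c-3p) and miR-466m-5p (also miR-669m-5p).

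Near-equal signals were rare. A pair of signals was taken as near-equal where both lay within 10% of each other on every array compared. Of the 120 pairs among the 16 members on all 6 arrays, 0 were near-equal, and at 20% the pair miR-466i-3p and miR-466q was. On the 3 type L arrays alone, a check added after the data had been seen, 6 of 406 pairs were near-equal at 10%. They were the 3 pairs among miR-466c-5p, miR-466h-5p and miR-669o-5p, together with miR-466i-3p and miR-466q, miR-467a-5p and miR-467e-5p, and miR-467b-5p and miR-467c-5p. Of these 6 pairs, 3 shared 12 or more bases.

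Apart from miR-669l-5p, which had 1 probe, each tested member was read by more than 1 probe, and these differ mainly in length. Of the 28 tested members with more than 1 probe, 27 had all probes in the same direction, and in 28 the longest probe was the brightest. That count of directions is a description only. It uses raw means however small the difference, and includes members detected in type L alone, whose direction was fixed. Probes of 1 member also share most of their sequence. Both probes of miR-467e-5p were lower in type H before normalization, although its call was higher. For miR-467a-3p the probes of 17, 18, 19 and 20 bases averaged 4.47 ± 0.662, 4.33 ± 0.792, 7.70 ± 1.19 and 8.48 ± 1.08 in type H (SD, n = 3). In type L they averaged 3.48 ± 0.182, 3.48 ± 0.521, 5.46 ± 0.383 and 5.85 ± 0.254. Type H was above type L at each length, though for the probe of 18 bases the arrays overlapped. For miR-466f-3p the probe of 14 bases was near 0 in both cell types, and the probe of 17 bases averaged 2.14 ± 0.382 in type H and 6.16 ± 0.435 in type L. For miR-669p-3p, whose shortest probe of 16 bases already holds the whole run, the means were 2.04 to 2.39 in type H over its 4 lengths, and 3.71 to 5.15 in type L.

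**Figure D4:**
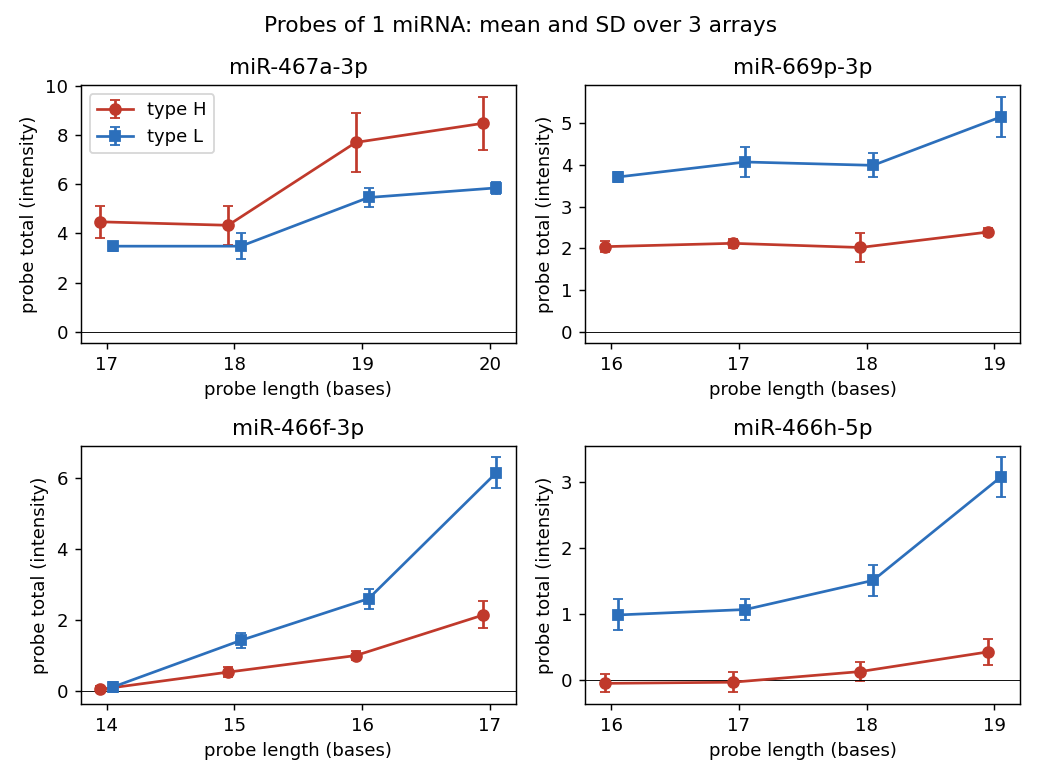
Probe total (y axis, intensity) against probe length (x axis, bases) for 4 members, as mean and SD over the 3 type H arrays (circles) and the 3 type L arrays (squares). Type H is above type L at every length for miR-467a-3p and below it at every length for miR-669p-3p and miR-466h-5p, while the shortest miR-466f-3p probe is near 0 in both.

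Members were also set out by the position listed for their probes, over those detected on all 6 arrays. Of the 10 listed in the chromosome 2 stretch, 7 were called higher (miR-467e-5p among them), 2 lower and 1 was not called. Over the 231 miRNAs 48.5% were called higher. The split depended on the scaling. With percentile scaling in place of quantiles, miR-669f-3p lost its call, while miR-467c-5p (-0.45) and miR-467e-5p (-0.34) were called lower. The 5 with no listed position were lower, as was miR-466i-3p on chromosome 13, beside 35.1% lower over the 231 miRNAs. Neighbours there included both directions, such as miR-467a-3p at 0.72 and miR-669p-3p at -0.66.

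Of another miRNA cluster known from embryonic stem cells, the miR-290 cluster, 4 miRNAs were looked up, and 2 of the 4 were detected on no array. MiR-290a-5p was detected on 2 type H and 3 type L arrays, with a log2 difference of -0.94, and miR-294-3p was detected on 1 type L array.

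The signal used matters for these families, since deposited totals of many members held more than their own probes. On the type H arrays 7, 8 and 7 of the detected members, and on the type L arrays 17, 14 and 16, had a deposited total above the sum of their own probes. MiR-466j is an example, with a deposited total of 693 on the first type L array where its own probes sum to 6.44. MiR-466q had deposited totals of 121, 87.5 and 80.2 in type H and 24.5, 23.2 and 20.9 in type L, which turned its log2 difference from -0.70 to 2.10. From those totals miR-466i-3p turned as well, to 0.56, and miR-467d-3p, miR-467a-5p and miR-467b-5p turned to -0.31, -0.57 and -0.61. MiR-466i-5p, miR-669n, miR-466h-3p, miR-467f, miR-669p-3p, miR-467a-3p, miR-466b-3p and miR-669f-3p kept their direction.

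**Figure D5:**
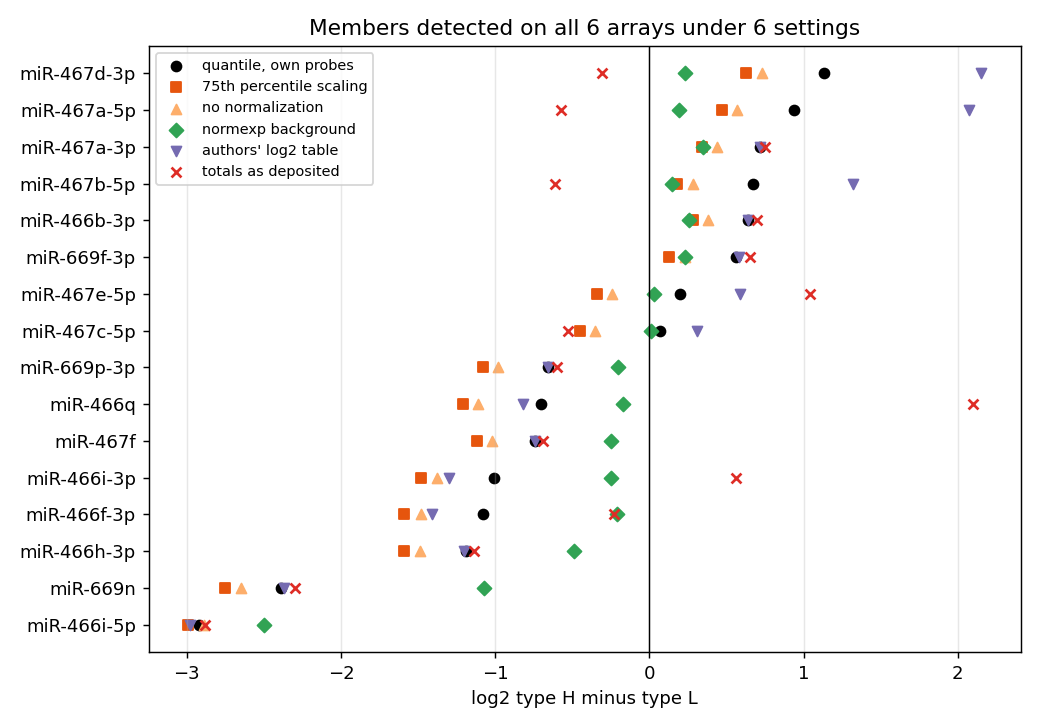
Log2 difference, type H minus type L (x axis), of the 16 members detected on all 6 arrays under 6 settings, 1 symbol per setting. MiR-466i-5p and miR-669n stay far below 0 under all 6, and the totals as deposited (crosses) place miR-466q at 2.10 and 5 other members on the other side of 0.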

How the data were processed

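The authors extracted background-subtracted spot intensities from 1-colour arrays with Feature Extraction 10.7.1.1, and deposited an intensity per spot, probe and miRNA, not normalized across the arrays. A deposited log2 table of theirs, described in the methods as quantile-normalized, has column medians of -3.32 to -3.26, the level of undetected miRNAs, and an unknown offset. It was used as an alternative. The file headers name another array design than the methods.

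Here the signal of a miRNA was the sum of the totals of its own probes. Sums were quantile-normalized over 1881 miRNAs, set to 1 where lower, and log2-transformed. The 311 miRNAs detected on every array of either cell type were tested with limma 3.58.1 in R 4.3.3 (lmFit, eBayes, Benjamini-Hochberg, threshold 0.05). The code was tested on simulated data. Arrays of the same replicate number did not deviate together (r = -0.00549, -0.0252 and 0.118). Groups and replicate numbers came from the sample titles.

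The members, lists and tests were chosen with earlier results of these data known. Every tested member could be named. Values on each array are given for the 5 largest rises and 8 largest falls past the threshold among members on all 6 arrays, the 3 members nearest 0, members with both arms tested and members found in 1 cell type only. The number of arrays limits the precision. Alternatives covered the signal, background, scaling, filter, floor, test, replicate block and each array left out. No genome sequence was used here.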

Additional observations from a re-analysis of the deposited data

How the results depend on the processing

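Of the 29 tested members 27 were called, 7 higher and 20 lower in type H (12 of these fixed by detection in type L alone). The median of the 29 was -1.08 on the log2 scale, beside 0.03 over all 311 miRNAs tested. Because it includes the 12 members whose direction was fixed, that median is a description only. That median moved to -1.41 with the authors' log2 table, -0.21 with normexp (offset 50, which draws low signals together), -1.48 with the 75th percentile, -1.38 without normalization and -1.60 with the 75th percentile of miRNAs outside the families. Higher calls numbered 4 without normalization and 4 with the families left out of the percentile. Restricted to the 16 members detected on all 6 arrays, 15 were called, 8 of them lower, and the median was -0.29. With no filter the median over all 61 members was 0.0, where most variances were 0 and the fit is unreliable. Leaving out each array in turn gave 26 to 27 calls, 6 to 7 higher and 20 to 21 lower, with medians of -1.16 to -0.99. The call of miR-467e-5p held in 4 of 20 alternatives. With the replicate number as a block 26 members were called, 6 higher and 20 lower, with a median of -1.08. The methods' t-test called 26 members both unadjusted and adjusted, and 266 and 264 of all 311 miRNAs. Pairs with near-equal signals numbered 1 at 20% and 6 on the type L arrays alone, the latter added after seeing the data.

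Reversals depended on the setting. With the deposited totals 6 of the 16 members detected on all 6 arrays turned, since these totals hold more than the member's own probes. Those that turned were miR-466i-3p (0.56), miR-466q (2.10), miR-467a-5p (-0.57), miR-467b-5p (-0.61), miR-467c-5p (-0.53) and miR-467d-3p (-0.31). Under the 75th percentile, no normalization and the 75th percentile without the families, miR-467c-5p was -0.45, -0.35 and -0.58 and miR-467e-5p -0.34, -0.24 and -0.46. These settings moved the median of the 231 miRNAs on all 6 arrays from 0.11 to -0.22, -0.12 and -0.34. MiR-669c-3p ranged from -0.14 to 0.07 as each array was left out, with 0.07 without type H replicate 2 and 0.01 without type L replicate 1. It was called lower under the 3 other scalings and, at -0.31, with the longest probe only, an alternative added after seeing the data. MiR-467b-5p lost its call without normalization and with the families left out of the scaling, and miR-669f-3p under all 3 scalings, with 0.01 its lowest value. The causes were not tested. Differences of signals near background, where most members lie, are limited by the floor.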
